A study of Mus musculus with 80 samples.

Results

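The 5 genes described here encode the proteins that close the main feedback loop of the circadian clock: the period genes Per1, Per2 and Per3 and the cryptochrome genes Cry1 and Cry2. They were chosen by symbol in the deposited table of gene counts, in which 5 of 78275 listed genes carry these symbols, and each passed the filter on low counts. Their transcripts were followed in liver RNA of male and female C57BL/6J mice, an inbred laboratory strain, bought at 8 to 12 weeks of age, kept for 10 days under 12 h of light and 12 h of dark and then moved to constant darkness. The control mice had food at all times, and the fasted mice had chow until circadian time (CT) 10 and none afterwards. All mice shared strain, water, darkness and, up to CT10, chow, and the labels name no transgene or drug. Sampling ran over 10 times, CT8 to CT44 in steps of 4 h. Each of the 20 groups held 4 livers of separate mice, those of 2 males and 2 females, and each treatment 40. At CT8 the mice assigned to the fast were still fed, and from CT12 to CT44 they had been without food for 2 to 34 h.

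In the mammalian clock the transcription factors CLOCK and BMAL1 bind E-box sequences and drive the period and cryptochrome genes, whose proteins assemble, enter the nucleus and repress CLOCK and BMAL1 until they are degraded. PER1 and PER2 carry the repressor complex and are also reached by signals such as glucocorticoids and cAMP, CRY1 and CRY2 are the stronger repressors, and PER3 is largely dispensable for the rhythm itself. The liver holds such a clock in its hepatocytes, and feeding time is known to be a strong cue for it.

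The promoter sequences are shown because the genes share the loop but not the time of day at which their transcripts peak. The files were made on GRCm39, per the submitters' processing notes, and the positions here are those of the earlier build GRCm38, in GENCODE M21, where Per1 lies on the plus strand at chr11:69095217-69109960, and the other genes lie on the minus strand, Per2 at chr1:91415982-91459324, Per3 at chr4:151003652-151044665, Cry1 at chr10:85131700-85185064 and Cry2 at chr2:92403646-92434043. The RefSeq promoter table (GRCm38.p6) matched 4 of the 5 genes, Per1 with 2 starts, and not Per2. Each window below is the stretch of 250 bases before an annotated start, printed 5′ to 3′ on the strand of the gene, with the motifs found in it in capitals.
Per1, chr11:69098699-69098948, plus strand: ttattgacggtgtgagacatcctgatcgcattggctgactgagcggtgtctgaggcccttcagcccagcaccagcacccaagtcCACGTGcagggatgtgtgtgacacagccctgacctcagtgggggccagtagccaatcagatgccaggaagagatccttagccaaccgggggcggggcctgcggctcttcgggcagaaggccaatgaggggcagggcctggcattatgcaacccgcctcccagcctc
Per3, chr4:151044666-151044915, minus strand: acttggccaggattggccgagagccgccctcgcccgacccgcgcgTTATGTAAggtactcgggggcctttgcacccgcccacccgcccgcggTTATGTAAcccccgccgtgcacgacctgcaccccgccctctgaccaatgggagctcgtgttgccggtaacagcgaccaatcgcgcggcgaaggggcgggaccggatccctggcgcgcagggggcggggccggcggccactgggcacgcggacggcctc
Cry1, chr10:85185055-85185304, minus strand: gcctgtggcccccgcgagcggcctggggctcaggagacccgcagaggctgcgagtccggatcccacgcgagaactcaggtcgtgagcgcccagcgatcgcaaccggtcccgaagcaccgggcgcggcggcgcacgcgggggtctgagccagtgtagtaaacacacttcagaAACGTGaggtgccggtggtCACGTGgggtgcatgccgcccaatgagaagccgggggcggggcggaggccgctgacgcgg
Cry2, chr2:92434070-92434319, minus strand: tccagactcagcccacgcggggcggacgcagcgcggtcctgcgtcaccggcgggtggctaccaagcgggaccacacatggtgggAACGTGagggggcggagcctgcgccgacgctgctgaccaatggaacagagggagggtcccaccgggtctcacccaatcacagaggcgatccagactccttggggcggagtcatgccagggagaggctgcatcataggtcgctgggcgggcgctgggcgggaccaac
The 6 motifs below were searched on both strands: the E-box CACGTG, the related CACGTT, the D-box in the forms TTATGTAA and TTACGTAA, the cAMP response element TGACGTCA and the letters TAGGTCA of the site for ROR and REV-ERB receptors. Per1 held 1 E-box, starting 166 bases before the more upstream of its 2 RefSeq starts, which lies within the M21 gene, and none of the 6 motifs lay in the window of its other start, which is not shown. Per3 held 2 D-boxes of the form TTATGTAA, at 205 and 158 bases before the start. Cry1 held an E-box at 60 bases and the form CACGTT at 79 bases before the start, the latter read on the opposite strand as AACGTG. Cry2 held CACGTT at 166 bases before the start, also on the opposite strand. Of the 32851 windows of this length in the table, 6.02% held CACGTG, 3.85% CACGTT, 0.819% TTATGTAA, 0.113% TTACGTAA, 1.55% TGACGTCA and 2.23% TAGGTCA. No matches overlapped. A match describes letters in a window and is not a measured binding site.

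A library held 25534901 to 59927771 gene counts, with a median of 42724329.5 for controls and 41874166 for fasted mice. Values are given as CPM, which are counts scaled to the size of the library with TMM factors, and ± marks the SD of 4 livers. The members held between 95 and 6846 reads per library. In 1 library, control CT8 female replicate 2, the ribosomal RNA gene Rn18s-rs5 took 31.3% of all counts, against at most 4.88% in any other. Titles and detailed labels differed on sex in 40 libraries and on treatment in 40. The titles were used, and sex-linked transcripts went with the title in 80 of 80 libraries. The summed hepatocyte markers (5 of 5 genes above 0, among them Alb and Ttr, 3 with a called rise and 2 with a called fall in the mean fasting effect) lay between 60260.4 and 112047 CPM in the controls of CT12 to CT44 and between 72738 and 127527 CPM in the fasted mice. Markers of other liver cells were lower with fasting in part: the mean fasting effect was a called fall for 4 of 4 genes of Kupffer cells (sums of 176 to 508 CPM in controls and 114 to 375 in fasted mice), 3 of 4 of stellate cells (78.5 to 169.9 against 55.7 to 154), 3 of 4 of bile duct cells (5.53 to 20.1 against 3.05 to 18.1), 3 of 4 of lymphocytes (9.57 to 45.6 against 8.05 to 25.8) and 2 of 4 of endothelial cells (199 to 306 against 202 to 317), where 32.9% of all genes fell. Of the endothelial markers 1 other rose, and none of the markers of any list was at 0. Their part in the results below was not tested, and in bulk liver fewer cells of a type and less RNA per cell cannot be told apart.

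The 5 transcripts did not move together with fasting. Over CT12 to CT44 the mean fasting effect, which averages the log2 difference of fasted minus control livers over 9 times and both sexes, was 1.46 for Per1, 0.24 for Cry2, -0.07 for Cry1, -0.39 for Per3 and -0.64 for Per2. By edgeR's quasi-likelihood test, adjusted over 21187 genes, the change was called for 4 of the 5 genes at an adjusted p under 0.05, beside 62.5% of all genes tested. Of these, 2 rose (29.5% of all genes did) and 2 fell (32.9% of all genes did). The median effect over all genes was -0.02. In controls a rhythm of 24 h was called for 5 of 5 genes, beside 41.8% of the 20114 genes tested. In fasted mice it was called for 5 of 5, beside 47.1% of 19933 genes. The rhythm itself differed between treatments for 2 of 5, Per1 and Cry2, beside 21.6% of 20965 genes. The mean effect, the control rhythm and the rhythm difference share control livers, and the comparisons at single times each have their own 4. The SE at a single time rests on a spread per gene from the fit of all 80 libraries.

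**Figure D1:**
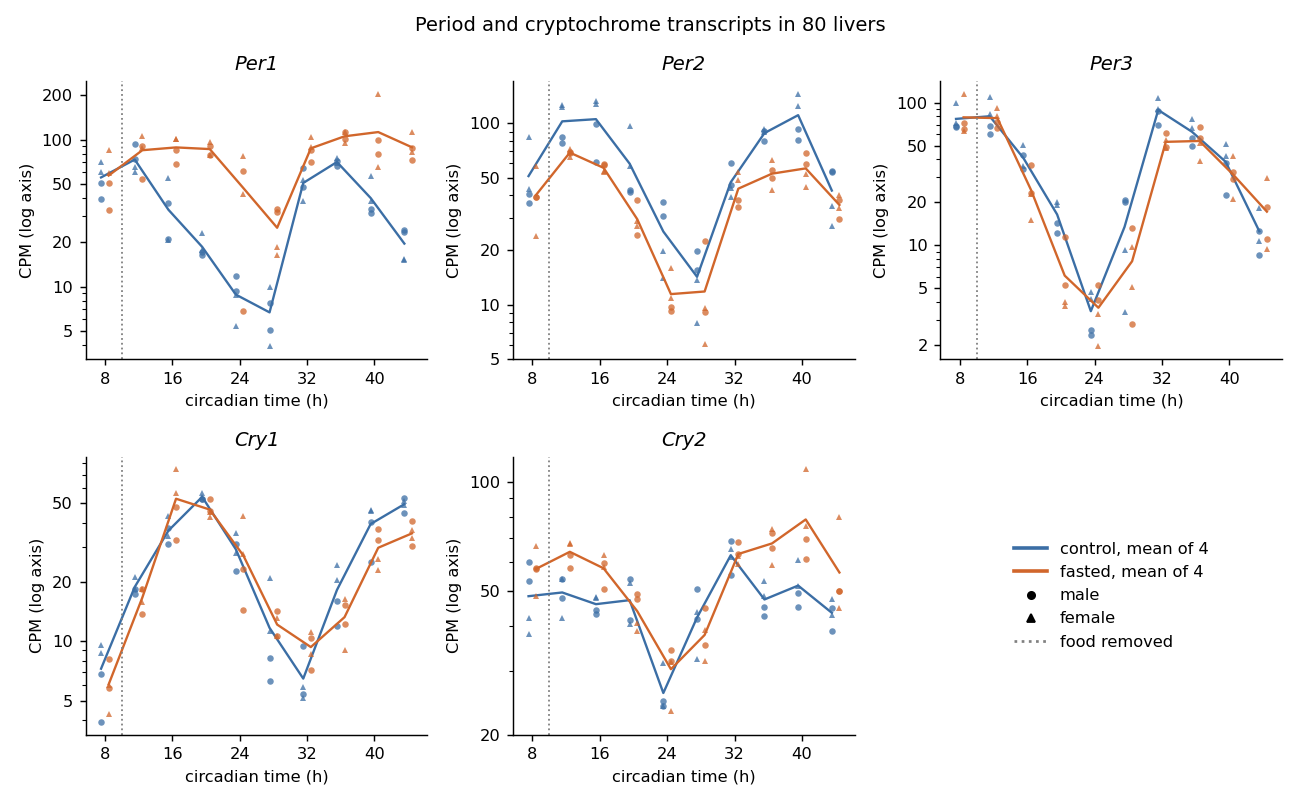
CPM of each gene (log axis) against circadian time in hours for each of the 80 livers, blue for control and orange for fasted mice, circles for males and triangles for females, lines through the means of 4. Per1 stays between 84.7 and 88.5 CPM on average in fasted livers from CT12 to CT20 while the control mean falls from 73.2 to 18.6 CPM, and the fasted mean of Per2 is below the control mean at all 9 times after CT10.

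Per1 is the period gene known to answer fastest to signals from outside the loop. In controls its mean was highest at CT12 and lowest at CT28, an 11.0-fold range. The control levels were 55.3 ± 13.4 CPM at CT8, 73.2 ± 15.1 at CT12, 33.3 ± 16.2 at CT16, 18.6 ± 3.09 at CT20 and 8.82 ± 2.65 at CT24 on the first day. They were 6.68 ± 2.74 CPM at CT28, 50.7 ± 10.6 at CT32, 70.4 ± 3.57 at CT36, 40.1 ± 11.3 at CT40 and 19.6 ± 5.03 at CT44 after that. By the mean of the log2 values, which sets the order of the levels here and for the other genes and can differ from that of the mean CPM, the times from high to low were CT12, CT36, CT8, CT32, CT40, CT16, CT44, CT20, CT24 and CT28, and neighbours in it were apart by more than the larger of their SDs (on the log2 scale) at 2 of 9 steps, below CT36 and below CT20. In fasted mice the range of the mean CPM was 4.48-fold. The fasted levels were 57.0 ± 21.4 CPM at CT8, 84.7 ± 22.0 at CT12, 88.5 ± 15.5 at CT16, 86.3 ± 9.08 at CT20 and 46.8 ± 30.1 at CT24. They were 25.1 ± 8.97 CPM at CT28, 87.3 ± 14.3 at CT32, 105 ± 8.46 at CT36, 113 ± 63.5 at CT40 and 88.7 ± 16.7 at CT44 later in the fast. From high to low the fasted times were CT36, CT40, CT44, CT16, CT32, CT20, CT12, CT8, CT24 and CT28, and 1 of 9 steps, below CT12, exceeded the larger SD.

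The fitted difference in Per1 was larger at CT20, CT24, CT28 and CT44, when control levels were between 6.68 and 19.6 CPM on average, than at the other times. At CT8, before food was removed, Per1 did not differ by the test (0.02, SE 0.33, adjusted p = 1), and 0 of 5 members did, beside 1.33% of all genes (edgeR's quasi-likelihood test, with 1 of 5, Cry2, at an unadjusted p under 0.05). At CT12, after 2 h without food, 0 of 5 were called by the same test, beside 1.6% of genes, and 2 of 5, Per2 and Cry2, had an unadjusted p under 0.05. At CT16, when 2 of 5 members were called beside 23.4% of genes, Per1 was at 36.8 and 21.1 CPM in the males and 54.8 and 20.7 CPM in the females in controls and at 85.2 and 67.9 CPM in the males and 101 and 100.2 CPM in the females in fasted livers. All 4 fasted livers were above all 4 controls, and the fitted difference was 1.41 on the log2 scale (SE 0.34, adjusted p = 0.00162). At CT20 the controls held 17.1, 16.4, 17.9 and 23.2 CPM and the fasted livers 91.1, 78.5, 96.6 and 78.8 CPM, again without overlap, a 4.63-fold ratio of means and a fitted difference of 2.22 on the log2 scale (SE 0.35, adjusted p = 1.68e-06), at a time when 3 of 5 members were called beside 36.6% of genes.

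At CT24 the fasted livers did not all stand apart. The controls were at 11.8 and 9.31 CPM in the males and 8.75 and 5.39 CPM in the females, and the fasted livers at 60.8 and 6.78 CPM in the males and 76.9 and 42.5 CPM in the females. The fasted male of replicate 2 lay within the control range and the other 3 fasted livers lay above it, and the fitted difference was 2.38 on the log2 scale (SE 0.36, adjusted p = 1.46e-06), with 2 of 5 members called beside 24.1% of genes. The value is 2.73 without replicate 2 of the males at all times and 1.3 without their replicate 1, where the low liver is the only fasted male left. At CT28, the trough, the controls held 5.04, 7.75, 3.92 and 10.0 CPM and the fasted livers 32.1, 33.6, 18.5 and 16.4 CPM, with no overlap and a difference of 1.84 on the log2 scale (SE 0.36, adjusted p = 0.000115). Per1 was the 1 member of 5 called there, beside 21% of genes.

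Near the control peak of the second day the groups stood closer. At CT32 the fasted livers held 70.3, 84.5, 105 and 89.2 CPM and the controls 63.9, 47.8, 52.8 and 38.5 CPM, and at CT36 the fasted livers held 101, 113, 95.5 and 112 CPM and the controls 66.3, 71.9, 68.9 and 74.5 CPM. The groups did not overlap at either time, yet the differences of 0.78 on the log2 scale (SE 0.34, adjusted p = 0.102) and 0.58 on the log2 scale (SE 0.33, adjusted p = 0.203) were not called in the fit of all libraries. With the 8 libraries of that time alone both passed, at adjusted p-values of 0.00968 and 0.00246 by edgeR's quasi-likelihood test. That fit was run at all 10 times, and its values for differences called in the fit of all libraries are not given here. At CT32 0 of 5 members were called beside 17.7% of genes (edgeR's quasi-likelihood test, with 3 of 5, Per1, Per3 and Cry1, at an unadjusted p under 0.05), and at CT36 2 of 5 were, Per2 and Cry2, beside 26.8%. At CT40 the fasted livers were at 99.7 and 79.9 CPM in the males and 65.2 and 205 CPM in the females, of which the female of replicate 2 was highest, against 31.9, 33.7, 56.6 and 38.1 CPM in controls. The difference of 1.48 on the log2 scale (SE 0.34, adjusted p = 0.00045) fell to 0.84 (adjusted p = 0.13) without replicate 2 of the females, and that of CT16 to 1.14 (adjusted p = 0.0634). At CT44, after 34 h without food, the fasted livers held 72.8, 88.3, 112 and 81.8 CPM and the controls 24.3, 23.6, 15.1 and 15.4 CPM, a 4.52-fold ratio and 2.21 on the log2 scale (SE 0.35, adjusted p = 1.74e-06). At CT40 and CT44 3 of 5 members were called, beside 39.9% and 39.4% of genes. Per1 was higher with fasting by its mean at 9 of 9 times and without overlap at 7 of 9, where 10.4% of all pairs of a gene and a time have all fasted livers above all controls. The mean effect was 1.46 on the log2 scale (SE 0.11, adjusted p = 2.62e-15), 1.32 in males alone and 1.60 in females alone.

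**Figure D2:**
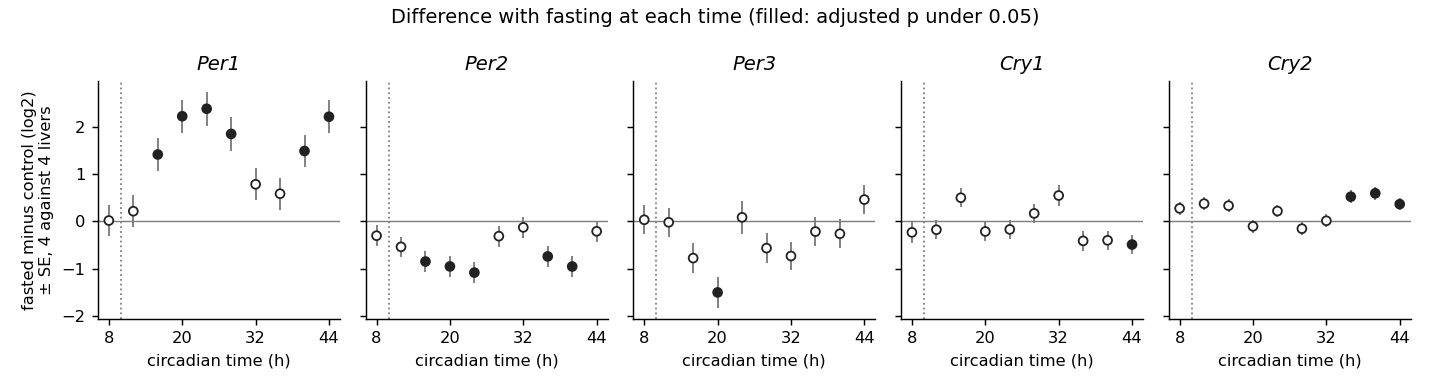
Fasted minus control difference in log2 CPM of each gene against circadian time in hours, for 4 against 4 livers per time, with its SE. The SE rests on a spread per gene from the fit of all 80 libraries, not on the livers of that time alone. Filled points have an adjusted p under 0.05, and the dotted line marks the removal of food: Per1 reaches 2.38 at CT24 and falls to 0.58 at CT36, Per2 is below 0 at every time, also at CT8 before the removal of food, and the values of Cry2 from CT36 to CT44 lie between 0.36 and 0.59.

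Per2, the period gene whose loss shortens and then abolishes rhythms in mice, had a lower mean with fasting at 9 of 9 times, and the fall was called at 5 of them. Its control levels were 51.1 ± 21.9 CPM at CT8, 102 ± 25.2 at CT12, 105 ± 33.1 at CT16, 59.8 ± 25.5 at CT20 and 25.3 ± 10.3 at CT24. On the second day they were 14.2 ± 4.90 CPM at CT28, 47.3 ± 9.03 at CT32, 88.3 ± 6.01 at CT36, 111 ± 29.6 at CT40 and 42.5 ± 13.6 at CT44. From high to low by log2 means the control times were CT40, CT16, CT12, CT36, CT20, CT8, CT32, CT44, CT24 and CT28, with 3 of 9 steps (below CT36, CT44 and CT24) beyond the larger SD, over a 7.79-fold range of mean CPM. In fasted mice the levels were 40.3 ± 14.1 CPM at CT8, 68.9 ± 2.68 at CT12, 56.8 ± 3.23 at CT16, 29.6 ± 5.92 at CT20 and 11.4 ± 3.11 at CT24. They were 11.8 ± 7.27 CPM at CT28, 43.6 ± 8.96 at CT32, 52.7 ± 8.49 at CT36, 56.4 ± 10.3 at CT40 and 35.4 ± 4.53 at CT44 later. The fasted order by log2 means was CT12, CT16, CT40, CT36, CT32, CT8, CT44, CT20, CT24 and CT28, with 2 of 9 steps (below CT12 and CT20) beyond the larger SD and a 6.03-fold range of mean CPM.

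At CT16 the control livers were at 99.1 and 61.1 CPM in the males and 128 and 133 CPM in the females, and the fasted livers at 59.2 and 59.9 CPM in the males and 54.5 and 53.6 CPM in the females. The fasted livers lay close together and below all 4 controls, which spread more. The difference was -0.85 on the log2 scale (SE 0.22, adjusted p = 0.00297). At CT24 the controls held 36.7, 30.7, 13.9 and 19.8 CPM and the fasted livers 9.68, 9.16, 10.9 and 15.96 CPM, which overlapped by 1 fasted liver, with a difference of -1.08 on the log2 scale (SE 0.22, adjusted p = 0.000246). At CT40, a day after CT16, the controls held 92.9, 80.6, 146 and 124 CPM and the fasted livers 68.7, 59.9, 52.4 and 44.6 CPM without overlap, with a difference of -0.95 on the log2 scale (SE 0.22, adjusted p = 0.000438). Per2 also passed at CT20 (-0.95, SE 0.22, adjusted p = 0.000523) and at CT36 (-0.74, SE 0.22, adjusted p = 0.0089). It did not at CT12 (-0.54, adjusted p = 0.227), although all 4 fasted livers were below all 4 controls, nor at CT28 (-0.31), CT32 (-0.13) and CT44 (-0.21). Before food was removed, at CT8, the difference in Per2 was -0.30 (SE 0.22, adjusted p = 0.617 by edgeR's quasi-likelihood test). The fasted livers lay below the controls without overlap at 5 of 9 times, CT12, CT16, CT20, CT36 and CT40, where 10.6% of all pairs of a gene and a time have all fasted livers below all controls. The mean effect was -0.64 on the log2 scale (SE 0.07, adjusted p = 1.77e-10), -0.60 in males and -0.68 in females. Without 1 male of each group 3 of these calls were lost: that at CT16 without replicate 1 (-0.66, adjusted p = 0.163), that at CT20 without replicate 2 (-0.80, adjusted p = 0.05004) and that at CT36 without replicate 1 (-0.84, adjusted p = 0.0607) or replicate 2 (-0.67, adjusted p = 0.14).

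Per3, the period gene whose protein matters least for the loop, had the widest swing. Control levels were 76.9 ± 14.7 CPM at CT8, 80.2 ± 21.5 at CT12, 40.9 ± 7.31 at CT16, 16.4 ± 3.77 at CT20 and 3.45 ± 1.18 at CT24. On the second day they were 13.4 ± 8.51 CPM at CT28, 88.8 ± 15.4 at CT32, 62.5 ± 11.6 at CT36, 38.5 ± 12.0 at CT40 and 12.5 ± 4.13 at CT44. The control order by log2 means was CT32, CT12, CT8, CT36, CT16, CT40, CT20, CT44, CT28 and CT24, a 25.7-fold range of mean CPM, with 4 of 9 steps beyond the larger SD, below CT8, CT36, CT40 and CT28. In fasted mice the levels were 78.8 ± 24.7 CPM at CT8, 77.8 ± 10.5 at CT12, 24.4 ± 9.02 at CT16, 6.12 ± 3.65 at CT20 and 3.65 ± 1.39 at CT24. They were 7.72 ± 4.70 CPM at CT28, 53.1 ± 5.97 at CT32, 53.8 ± 11.9 at CT36, 31.3 ± 8.72 at CT40 and 17.2 ± 9.33 at CT44 later. The fasted order by log2 means was CT12, CT8, CT32, CT36, CT40, CT16, CT44, CT28, CT20 and CT24, a 21.6-fold range of mean CPM with 3 of 9 steps beyond the larger SD, below CT8, CT36 and CT44.

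The fall of Per3 with fasting stood out at few times. At CT20 the controls were at 14.3 and 12.3 CPM in the males and 19.0 and 20.1 CPM in the females and the fasted livers at 11.5 and 5.25 CPM in the males and 3.72 and 4.02 CPM in the females. No fasted liver reached the lowest control, and the difference was -1.50 on the log2 scale (SE 0.33, adjusted p = 0.000273), the only time at which Per3 was called. At CT32 the controls held 87.0, 70.2, 108 and 90.3 CPM and the fasted livers 60.9, 48.8, 48.1 and 54.5 CPM, also without overlap, with a difference of -0.73 (adjusted p = 0.0904, and 0.00327 with the 8 libraries of CT32 alone). Of all genes, 14.7% at CT20 and 9.23% at CT32 had all fasted livers below all controls. At CT16 the difference was -0.78 (adjusted p = 0.0625), and at CT44 it was 0.46 (adjusted p = 0.26), with fasted livers at 18.5, 11.1, 29.8 and 9.35 CPM and controls at 8.61, 12.6, 10.7 and 18.2 CPM, which overlap. The mean effect of -0.39 on the log2 scale (SE 0.11, adjusted p = 0.00116) was -0.25 (adjusted p = 0.0517) without CT20. It was -0.66 (adjusted p = 0.00054) in females alone and -0.12 (adjusted p = 0.467) in males alone. The female minus male difference of the effect was -0.54 on the log2 scale (SE 0.21, adjusted p = 0.0825). In the M21 annotation Per3 lies within the gene Camta1 on the same strand, and Camta1 held 9.63% as many reads as Per3 over all libraries. The way in which the authors' counting divided reads between them is not given in the sources used here.

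Cry1, the cryptochrome that represses most strongly and late in the cycle, had no called change in the mean fasting effect. Control levels were 7.28 ± 2.52 CPM at CT8, 18.9 ± 1.61 at CT12, 36.4 ± 5.11 at CT16, 54.0 ± 1.74 at CT20 and 29.3 ± 5.26 at CT24. On the second day they were 11.7 ± 6.49 CPM at CT28, 6.48 ± 1.98 at CT32, 18.2 ± 5.41 at CT36, 39.3 ± 9.81 at CT40 and 49.6 ± 3.73 at CT44. The control order by log2 means was CT20, CT44, CT40, CT16, CT24, CT12, CT36, CT28, CT8 and CT32, an 8.32-fold range of mean CPM, with 3 of 9 steps, below CT20, CT16 and CT24, beyond the larger SD. In fasted mice the levels were 6.06 ± 1.57 CPM at CT8, 16.7 ± 2.26 at CT12, 52.8 ± 17.4 at CT16, 46.5 ± 4.46 at CT20 and 27.2 ± 12.0 at CT24. They were 12.2 ± 1.79 CPM at CT28, 9.36 ± 1.802 at CT32, 13.3 ± 3.33 at CT36, 29.8 ± 6.43 at CT40 and 35.3 ± 4.37 at CT44 later. The fasted order by log2 means was CT16, CT20, CT44, CT40, CT24, CT12, CT36, CT28, CT32 and CT8, an 8.72-fold range of mean CPM, with 3 of 9 steps, below CT20, CT28 and CT32, beyond the larger SD.

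The mean effect on Cry1 was -0.07 on the log2 scale (SE 0.07, adjusted p = 0.356), with a sign that was not stable: 0.01 in males alone and -0.16 in females alone. Behind this mean the difference moved with time. At CT16, after 6 h without food, the fasted livers were at 48.1 and 32.5 CPM in the males and 56.3 and 74.4 CPM in the females and the controls at 37.3 and 31.2 CPM in the males and 43.1 and 34.0 CPM in the females. The groups overlapped, and the difference was 0.50 (adjusted p = 0.0662). At CT44 the fasted livers held 30.5, 40.5, 33.2 and 36.8 CPM and the controls 44.6, 53.4, 51.2 and 49.1 CPM. No fasted liver reached the lowest control, and the difference was -0.49 on the log2 scale (SE 0.20, adjusted p = 0.0467), which did not pass under DESeq2's size factors (adjusted p = 0.0553) or without any of the 4 replicates, in fits of 3 livers per group. Of all genes, 16.2% had all fasted livers below all controls at CT44. At CT32, the control trough, the difference was 0.54 (adjusted p = 0.07), at CT36 -0.41 (adjusted p = 0.133) and at CT40 -0.40 (adjusted p = 0.108).

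Cry2, the paralogue that sets period in the opposite direction to Cry1 when lost, had a mean rise with fasting of 0.24 on the log2 scale. Its control levels were 48.3 ± 10.1 CPM at CT8, 49.5 ± 5.77 at CT12, 45.9 ± 2.50 at CT16, 47.1 ± 7.17 at CT20 and 26.1 ± 3.65 at CT24. On the second day they were 42.2 ± 7.51 CPM at CT28, 62.7 ± 5.59 at CT32, 47.3 ± 4.56 at CT36, 51.7 ± 6.73 at CT40 and 43.5 ± 3.67 at CT44. The control order by log2 means was CT32, CT40, CT12, CT8, CT36, CT20, CT16, CT44, CT28 and CT24, a 2.40-fold range of mean CPM, with 2 of 9 steps, below CT32 and CT28, beyond the larger SD, so that most times could not be ordered. In fasted mice the levels were 57.5 ± 7.37 CPM at CT8, 64.1 ± 4.65 at CT12, 57.7 ± 5.20 at CT16, 43.9 ± 4.92 at CT20 and 30.4 ± 4.84 at CT24. They were 37.7 ± 5.54 CPM at CT28, 63.2 ± 3.65 at CT32, 67.6 ± 6.90 at CT36, 78.7 ± 20.8 at CT40 and 56.2 ± 16.04 at CT44 later. The fasted order by log2 means was CT40, CT36, CT12, CT32, CT16, CT8, CT44, CT20, CT28 and CT24, a 2.59-fold range of mean CPM, with 2 of 9 steps, below CT20 and CT28, beyond the larger SD.

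At CT36 the fasted livers held 71.99 and 65.5 CPM in the males and 74.1 and 58.8 CPM in the females, and the controls 42.6 and 45.1 CPM in the males and 53.2 and 48.4 CPM in the females. At CT40 the fasted livers held 69.5 and 61.2 CPM in the males and 75.5 and 109 CPM in the females, and the controls 45.1 and 49.2 CPM in the males and 51.5 and 61.0 CPM in the females. The groups did not overlap at either time, and the differences were 0.52 on the log2 scale (SE 0.13, adjusted p = 0.00289) and 0.59 on the log2 scale (SE 0.13, adjusted p = 0.000382). At CT44 the difference was 0.36 on the log2 scale (SE 0.13, adjusted p = 0.0276), with fasted livers at 49.8, 49.96, 79.97 and 44.9 CPM that overlapped the controls, and it was 0.09 (adjusted p = 0.617) without replicate 1 of the females. Before food was removed, at CT8, the group assigned to the fast was at 57.4, 57.7, 48.4 and 66.5 CPM and the controls at 59.9, 53.3, 41.9 and 38.1 CPM, a difference of 0.27 (SE 0.13, adjusted p = 0.385), beside a mean effect after it of 0.24 on the log2 scale (SE 0.04, adjusted p = 9.73e-06). Cry2 was higher by its mean at 7 of 9 times and without overlap at 4, CT12, CT16, CT36 and CT40. At these times in turn 3.11%, 9.57%, 11.1% and 12.5% of all genes had all fasted livers above all controls. The call at CT36 was lost without replicate 1 of the males (0.45, adjusted p = 0.15) or their replicate 2 (0.57, adjusted p = 0.0583), that at CT40 without replicate 1 of the males (0.51, adjusted p = 0.0683) and that at CT44 without either male (0.30 and 0.41). At CT12 the difference was 0.37 (adjusted p = 0.157), and it passed without replicate 1 of the females (0.47, adjusted p = 0.0237). In M21 it overlaps the antisense transcript D930015M05Rik, which held 0.0372% as many reads as Cry2.

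The order in which the transcripts peaked was read from a cosine of 24 h fitted by least squares to log2 CPM with sex in the model. In the 40 control livers Per3 peaked at CT11.5 (95% interval 10.9 to 12.1), Cry2 at CT11.9 (95% interval 10.4 to 13.5), Per1 at CT12.3 (95% interval 11.7 to 12.97), Per2 at CT14.3 (95% interval 13.7 to 14.9) and Cry1 at CT19.0 (95% interval 18.6 to 19.5). The peak of Per2 minus that of Per1 was 1.94 h (95% interval 1.25 to 2.63), that of Per3 minus Per1 -0.811 h (95% interval -1.59 to -0.0293) and that of Per3 minus Per2 -2.75 h (95% interval -3.48 to -2.03), and none of these intervals held 0. Cry1 minus Per2 was 4.73 h (95% interval 3.99 to 5.48), Cry1 minus Per1 6.68 h (95% interval 5.88 to 7.47) and Cry1 minus Per3 7.49 h (95% interval 6.84 to 8.14). Cry2 could not be placed apart from Per1 or Per3, from which its peak differed by -0.396 h (95% interval -2.10 to 1.31) and 0.415 h (95% interval -0.855 to 1.68). Cry2 minus Per2 was -2.34 h (95% interval -4.05 to -0.629) and Cry2 minus Cry1 -7.07 h (95% interval -8.69 to -5.46). The 2 cryptochrome transcripts were thus farther apart in time than any pair of period transcripts. The 10 pairs are intervals without a test.

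The sizes of the control rhythms fell into a large and a small class. The peak-to-trough difference on the log2 scale was 4.10 (95% interval 3.45 to 4.76) for Per3, 3.25 (95% interval 2.67 to 3.83) for Per1, 2.89 (95% interval 2.57 to 3.20) for Cry1, 2.80 (95% interval 2.32 to 3.28) for Per2 and 0.63 (95% interval 0.35 to 0.91) for Cry2. Among 20114 genes ranked by this size Per3 was at place 17, Per1 at 50, Cry1 at 70, Per2 at 76 and Cry2 at 4410, where the median over all genes was 0.34 and over the called genes 0.49. The adjusted p-values by edgeR's quasi-likelihood test were 9.45e-17 for Cry1, 5.28e-12 for Per3, 2.83e-11 for Per1, 7.07e-11 for Per2 and 0.00173 for Cry2, and that of Cry2 rose to 0.16 without CT24. The cosine and sex took up 90.9% of the variance of Cry1, against 93.2% with a free mean at each time. The same shares were 82.1% and 92.2% for Per3, 78.2% and 91.6% for Per1, 79.6% and 84.4% for Per2, and 36.9% and 77.3% for Cry2. The time course of Cry2 was therefore the least like a cosine, with a dip at CT24 and a maximum at CT32.

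**Figure D3:**
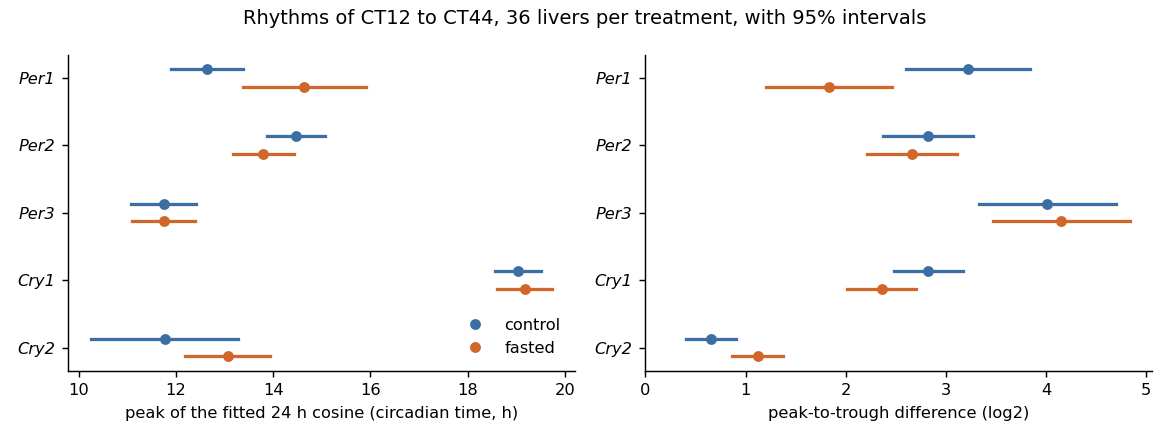
Peak of the fitted cosine in circadian hours (left) and peak-to-trough difference in log2 CPM (right) for each gene, blue for 36 control and orange for 36 fasted livers of CT12 to CT44, with 95% intervals. In fasted livers Per1 lies at 14.6 h with a smaller size of 1.83 on the log2 scale, and Cry2 has a larger size of 1.12. The markers of Per3 lie at 11.7 h in both treatments.

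Over CT12 to CT44, with the same terms in both treatments and a linear change over time in each, the rhythm of Per1 differed most between treatments by its p. On the log2 scale its peak-to-trough difference was 3.22 in controls and 1.83 in fasted mice, a difference of -1.39 (95% interval -2.27 to -0.51). On the CPM scale its means ran from 6.68 to 73.2 in controls and from 25.1 to 113 in fasted mice. Its fitted peak differed by 2.00 h (95% interval 0.534 to 3.47), at CT14.6 in fasted mice. The test of the rhythm difference gave an adjusted p of 0.000132 by edgeR's quasi-likelihood test. Food was removed at CT10 in all fasted mice, so circadian time and hours without food cannot be told apart. The linear term takes up only a straight change with them. For Cry2 the size was 0.65 in controls and 1.12 in fasted mice, a difference of 0.47 (95% interval 0.11 to 0.83), and the peak differed by 1.29 h (95% interval -0.454 to 3.03), with an adjusted p of 0.0373. This call was lost without any 1 of the 4 replicates, each left out of all groups, with adjusted p-values from 0.0644 to 0.163. The genes called over the whole table also fell in these fits, from 4537 to between 2461 and 3374. Both genes had a called rhythm in fasted mice, at adjusted p-values of 0.000554 for Per1 and 2.21e-08 for Cry2. The rhythm difference of the other members did not pass, and their intervals give the differences left possible. For Per2 the size differed by -0.16 (95% interval -0.80 to 0.47) and the peak by -0.673 h (95% interval -1.54 to 0.189), with an adjusted p of 0.233. For Per3 the size differed by 0.14 (95% interval -0.83 to 1.11) and the peaks, at CT11.7 and CT11.7, had an interval of their difference of -0.931 to 0.93 h (adjusted p = 0.866). For Cry1 the size differed by -0.47 (95% interval -0.96 to 0.02) and the peak by 0.133 h (95% interval -0.6 to 0.866), with an adjusted p of 0.529.

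The gaps between peaks in the 36 fasted livers came from a fit of those livers alone with a linear change over time, which the fit of the 40 controls did not have. The peak of Per2 minus that of Per1 was -0.849 h (95% interval -2.10 to 0.398), an interval that holds 0, and that of Per3 minus Per1 was -2.90 h (95% interval -4.39 to -1.41). Cry1 minus Per2 was 5.37 h (95% interval 4.53 to 6.21) and Cry1 minus Per3 7.42 h (95% interval 6.59 to 8.26). Differences of these gaps between treatments were not tested.

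Levels of different genes can be compared per length. Divided by the exon length in M21 (5.63 kb for Per1, 5.86 kb for Per2, 9.61 kb for Per3, 3.34 kb for Cry1 and 6.32 kb for Cry2), the mean over the 40 control livers was 11.1 CPM per kb for Per2, 8.12 for Cry1, 7.34 for Cry2, 6.69 for Per1 and 4.51 for Per3. Over the 40 livers of the fasted series, 4 of them taken at CT8, it was 13.9 for Per1, 8.81 for Cry2, 7.46 for Cry1, 6.95 for Per2 and 3.68 for Per3, so that Per1 went up and Per2 down in this order. Within a liver the ratio of Per1 to Per2 per length was 0.358 ± 0.11 at CT20 in controls (range 0.193 to 0.424) and 3.09 ± 0.438 in fasted livers (range 2.50 to 3.46). At CT44 it was 0.491 ± 0.067 (range 0.448 to 0.59) and 2.62 ± 0.481 (range 2.00 to 3.08). At CT8 it was 1.22 ± 0.397 in controls and 1.58 ± 0.719 in the group still to be fasted, with overlapping ranges. After food was removed the ranges overlapped only at CT12 (0.496 to 1.26 in controls and 0.815 to 1.69 in fasted livers). The fasted range of this ratio was wide at CT24 (0.769 to 7.37) and CT40 (1.29 to 4.80). The ratio of Cry1 to Cry2 at CT44 was 2.16 ± 0.143 in controls (range 1.96 to 2.26) and 1.26 ± 0.363 in fasted livers (range 0.786 to 1.55), and at CT20 it was 2.20 ± 0.314 and 2.01 ± 0.156. These ratios are descriptions and were not tested.

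Circadian time and hours without food rose together in the fasted mice, so a dependence on time cannot be assigned to either. The fasting effect depended on the time for 4 of 5 members, beside 33.7% of all genes, with adjusted p-values of 0.000986 for Per1, 0.00677 for Cry2, 0.0127 for Cry1 and 0.0221 for Per3 by edgeR's quasi-likelihood test, and 0.0559 for Per2. Of these calls, that of Per1 was lost without male replicate 1 (adjusted p = 0.0719), that of Per3 without male replicate 1, male replicate 2 or female replicate 1 (0.254, 0.103 and 0.121), that of Cry1 without male or female replicate 2 (0.184 and 0.158) and that of Cry2 without either male replicate (0.383 and 0.255). Set against matched phases of the first day (CT12, CT16 and CT20), the effect at CT36, CT40 and CT44 was higher by 0.76 on the log2 scale (SE 0.25, adjusted p = 0.0272) for Per3 and by 0.29 on the log2 scale (SE 0.11, adjusted p = 0.0488) for Cry2, and it differed by -0.47 on the log2 scale (SE 0.16, adjusted p = 0.0352) for Cry1. For Per1 (0.14, adjusted p = 0.775) and Per2 (0.14, adjusted p = 0.621) it did not pass, so that 3 of 5 were called beside 21.2% of genes. These calls of the later against the earlier day were lost without single replicates, each left out of all groups. For Per3 the adjusted p was 0.169 and 0.111 without male replicates 1 and 2 and 0.21 without female replicate 1. For Cry1 it was 0.286 without male replicate 2 and 0.0704 and 0.195 without female replicates 1 and 2. For Cry2 it was 0.366 and 0.262 without the males and 0.17 without female replicate 1, where the value fell to 0.19, and it was 0.0664 by limma. In the controls themselves no member differed between CT32 to CT44 and CT8 to CT20, with 0 of 5 called beside 0% of all genes by edgeR's quasi-likelihood test (0 of 5 at an unadjusted p under 0.05 and 0 of 5 by limma).

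Differences between the sexes passed the test for 1 gene. In controls Cry1 was the 1 of 5 members called, beside 39.2% of all genes, with a female minus male difference of 0.33 on the log2 scale (SE 0.09, adjusted p = 0.00301). Its lowest, median and highest levels in the 20 control females were 5.19, 26.3 and 56.4 CPM and in the 20 control males 3.90, 20.6 and 53.4 CPM, ranges that overlap and that each hold the whole cycle. The difference was 0.28 (adjusted p = 0.066) without replicate 2 of the females. The female mean was higher at 9 of 10 times. Per3 was higher in females at 9 of 10 control times as well, with a difference of 0.26 on the log2 scale (SE 0.14, adjusted p = 0.135) that did not pass. The sex difference of Per2 was 0.08 (adjusted p = 0.551), and those of Per1 and Cry2 had adjusted p-values of 1 and 0.998. The effect of fasting did not differ between the sexes by the test for any member, with 0 of 5 called beside 12.4% of genes by edgeR's quasi-likelihood test (1 of 5, Per3, at an unadjusted p under 0.05, and 0 of 5 by limma). The control rhythm did not differ either, with 0 of 5 called beside 0.0398% of genes (1 of 5, Per2, at an unadjusted p under 0.05, and 0 of 5 by limma).

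The second readout of the same libraries, counts on bins of exons, addresses whether the share of a gene's reads on each exon changed with fasting. Of the bins of the members, 31 of 33 for Per1, 24 of 25 for Per2, 27 of 28 for Per3, 17 of 20 for Cry1 and 16 of 17 for Cry2 had enough counts. With edgeR's diffSpliceDGE the use of exons was called changed for 1 of 5 members, Cry2, beside 14.3% of 13889 genes, at an adjusted p of 0.00255, and not for Per1 (1), Per2 (0.88), Per3 (1) or Cry1 (1). In Cry2, bin 12 alone carried the call, with a log2 difference relative to the gene of 0.31 (adjusted p = 0.00134). It held 0.285%, 0.955% and 1.67% of the counts of Cry2 as lowest, median and highest of 36 controls, and 0.299%, 1.14% and 2.60% in 36 fasted livers, ranges that overlap widely, from means of 26.1 and 39.2 counts per library. The call was lost without replicate 2 of the males (adjusted p = 0.677), without replicate 1 of the females (adjusted p = 1) and with an F-test per gene (adjusted p = 0.114). Under limma's diffSplice both Cry2 (adjusted p = 3.4e-06) and Per1 (adjusted p = 6.72e-09) were called, where 4558 genes were called in place of 1986. The bins carry no coordinates, so that the exon behind bin 12 was not looked up here. The 3 exon columns of fasted CT40 that were matched best by another library of their group led to a fit of that group without sex.

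Across the 20 means of treatment and time, the genes whose log2 CPM followed each member most closely, among 11576 genes with a mean log2 CPM of at least 1, were found by Pearson's r, given in parentheses as a description over 20 means that share libraries. For Per1 they were P2ry2 (0.95), Prr3 (0.92) and Mknk2 (0.91). For Per2 they were Tspan4 (0.95), Zfp970 (0.94) and Lonrf1 (0.93). For Per3 they were Wee1 (0.97), Tef (0.96) and Rev1 (0.94). For Cry1 they were Zbtb21 (0.96), Ahctf1 (0.96) and Lonrf3 (0.95), and for Cry2, at lower values, Sh2b3 (0.89), Pdk2 (0.85) and Ciart (0.84). Among the members, over the same 20 means, r was 0.76 for Per3 and Cry2, 0.74 for Per2 and Per3, 0.71 for Per1 and Cry2, 0.56 for Per2 and Cry2, 0.54 for Per1 and Per3, 0.47 for Per1 and Per2, 0.18 for Per2 and Cry1, -0.07 for Per1 and Cry1, -0.22 for Cry1 and Cry2 and -0.48 for Per3 and Cry1. Within groups, r was taken over the 80 livers after the mean of each treatment and time and the sex difference within each treatment were removed. This r was 0.46 for Per3 and Cry2, 0.38 for Per2 and Per3, and -0.36 for Per3 and Cry1, and the other 7 pairs lay between -0.15 and 0.25. Values of 1 liver share its depth and scaling.

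The genes around the members in the loop were followed as 3 lists of 14, 13 and 14 genes. Each list is given by its counts, its 2 largest called rises and its 2 largest called falls, and the other genes named were chosen for their roles after their values were seen. Of 14 activators and loop partners, 11 changed in the mean fasting effect, 8 up and 3 down, beside 62.5% of all genes called, 29.5% up and 32.9% down. The median was 0.20 over the 14 beside -0.02 over all genes. Ciart, a repressor of CLOCK and BMAL1, rose by 1.71 (SE 0.13, adjusted p = 3.89e-16) and Nr1d1, which encodes the repressor REV-ERBα, by 0.96 (SE 0.11, adjusted p = 6.86e-11). Bhlhe40, a repressor that competes for E-boxes, changed by -0.98 (SE 0.07, adjusted p = 4.01e-16) and Npas2, a partner of BMAL1 in place of CLOCK, by -0.69 (SE 0.24, adjusted p = 0.0104). Clock rose by 0.23 (SE 0.04, adjusted p = 2.65e-07), and Bmal1 was at 0.05 (SE 0.10, adjusted p = 0.705). A control rhythm was called for 14 of 14, a fasted rhythm for 14 of 14 and a rhythm difference for 6 of 14, beside 41.8%, 47.1% and 21.6% of all genes.

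Of 13 kinases, ligases and other partners that act on PER and CRY proteins, 11 changed, 8 up and 3 down, beside the same 62.5% of all genes called, with a median of 0.11. The rises were small. Usp2, a deubiquitinating enzyme, rose by 0.42 (SE 0.09, adjusted p = 8.03e-05) and Csnk1e, which encodes casein kinase 1ε that phosphorylates PER, by 0.28 (SE 0.04, adjusted p = 2.66e-08). Its relative Csnk1d rose by 0.20 (SE 0.02, adjusted p = 1.13e-11). Timeless changed by -0.42 (SE 0.10, adjusted p = 0.000148) and Fbxl21, which encodes a ubiquitin ligase subunit, by -0.31 (SE 0.09, adjusted p = 0.00203). A control rhythm was called for 7 of 13, a fasted rhythm for 7 and a rhythm difference for 5, beside 41.8%, 47.1% and 21.6% of all genes.

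Of 14 targets of signals known to reach Per1 and Per2 (glucocorticoids, cAMP, serum, heat and cold), 9 rose and 0 fell, with 5 not called, and the median was 0.62. The number called is near the 62.5% of all genes called, where 29.5% of all genes rose and 32.9% fell. The largest rises were those of Fkbp5, a glucocorticoid-induced co-chaperone, by 2.16 (SE 0.11, adjusted p = 5.05e-22), and Zbtb16, also induced by glucocorticoids, by 1.92 (SE 0.15, adjusted p = 4.63e-15). Tsc22d3, another target of that hormone, was at 0.10 (SE 0.08, adjusted p = 0.31). The other called rises were those of the immediate early genes Fos, by 1.02 (SE 0.18, adjusted p = 2.19e-06), and Egr1, by 0.61 (SE 0.23, adjusted p = 0.0179), of Nr4a1, by 0.95 (SE 0.18, adjusted p = 1.14e-05), and Sik1, by 0.79 (SE 0.15, adjusted p = 1.01e-05), which answer to cAMP, of the kinase gene Sgk1, by 0.63 (SE 0.13, adjusted p = 2.99e-05), of the cold-induced Cirbp, by 0.64 (SE 0.07, adjusted p = 6.81e-11), and of the chaperone gene Hspa8, by 0.60 (SE 0.07, adjusted p = 1.56e-10). Those not called were, beside Tsc22d3, Crem at -0.08 (SE 0.07, adjusted p = 0.354), and the heat shock genes Hspa1b at 0.25 (SE 0.18, adjusted p = 0.229), Hspa1a at -0.03 (SE 0.19, adjusted p = 0.924) and Hsp90aa1 at -0.14 (SE 0.07, adjusted p = 0.0812). All adjusted p-values of these lists are from edgeR's quasi-likelihood test over all genes. The sex of the mouse altered the fasting effect for 0, 2 and 0 genes of the 3 lists in turn, beside 12.4% of all genes.

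**Figure D4:**
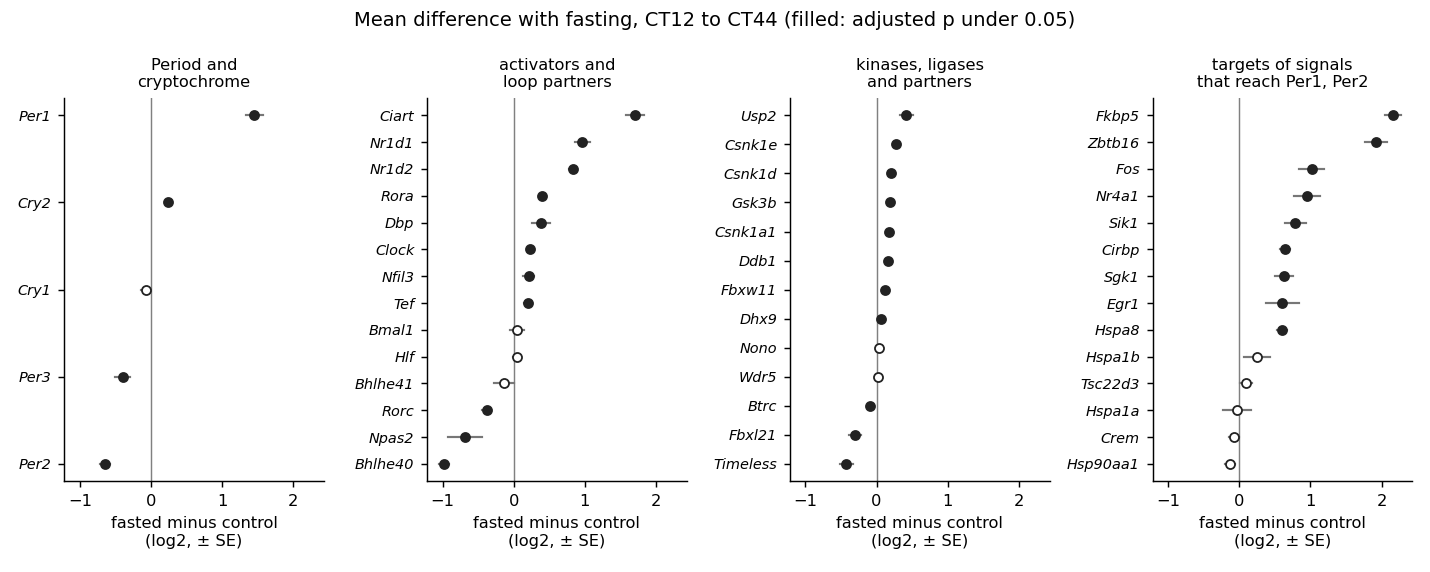
Mean fasted minus control difference over CT12 to CT44 in log2 CPM, with its SE, for the 5 members and the 3 lists of 14, 13 and 14 genes, ordered by size. Filled points have an adjusted p under 0.05. Per1, at 1.46, lies with Ciart at 1.71, Zbtb16 at 1.92 and Fkbp5 at 2.16, and Per2, at -0.64, with Npas2 at -0.69.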

How the data were processed

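Poly-A RNA of the left liver lobe was sequenced from 80 mice after an Illumina stranded mRNA preparation, per the labels. The authors deposited gene counts and counts on exon bins. The submitters' processing notes name Trimmomatic, HISAT2, DESeq2 and the build GRCm39, and the counting program is not given in the sources used here. The deposited normalised table was not used. Groups came from the titles, and 0 columns were left without a sample. The 5 members, the lists and the tests were chosen with earlier results of these data known. 1 gene of the list of kinases, ligases and partners is not reported here.

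Gene counts were filtered with filterByExpr, scaled by TMM and fitted with edgeR 4.0.16 (R 4.3.3): trended dispersions and the quasi-likelihood F-test, with treatment, time and sex combined into cells that each have a mean. Contrasts were the mean fasting effect over CT12 to CT44, each time, its change over time and between days, and sex. Rhythms were tested as a cosine and sine of 24 h, in 40 controls, 36 fasted livers (with a linear change over time) and both. P-values were Benjamini-Hochberg adjusted over all genes, and an adjusted p under 0.05 was called. Peaks and sizes came from least squares on log2 CPM (prior count 2) with 95% delta-method intervals. Exon use was tested with diffSpliceDGE and Simes' method. Genes with a shared pattern were ranked by Pearson's r over 20 group means. In the text, members are given in full, list genes by counts with their 2 largest called rises and falls, and bins where called. The edgeR tests of genes, rhythms and exon use and a least-squares fit of peaks and sizes were tried on simulated counts. The 95% intervals were not. Livers came from separate mice, and the p-values of the contrasts rest on the spread between them. In the rhythm tests and their intervals the residual also held the departure of the time course from a cosine. Depth was 25534901 to 59927771 counts per library. Alternatives were other scalings, filters, limma 3.58.1, DESeq2 1.42.0, each sex alone, a replicate block, single replicates or times left out, and other rhythm models.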

Additional observations from a re-analysis of the deposited data

Results flagged for a closer look

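Dixon's criterion was applied to each of the 5 genes in each of the 20 groups of 4 livers, 100 sets of values from the same livers. In 2 of these sets 1 liver lay far from the others, a gap that chance gives in about 1 in 20 sets. For Per3 at CT8 in controls, female replicate 1 was at 6.63 on the log2 CPM scale and the other 3 livers between 6.08 and 6.17, and the gap was 0.838 of the group's range. For Cry2 at CT24 in controls, female replicate 2 was at 4.98 and the others between 4.59 and 4.63, and the gap was 0.879 of the range.

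The fasting effect differed between times by edgeR's quasi-likelihood test for Per1 (adjusted p = 0.000986), Cry2 (adjusted p = 0.00677), Cry1 (adjusted p = 0.0127) and Per3 (adjusted p = 0.0221). Between the matched hours of the first and second day it differed for Per3 (adjusted p = 0.0273), Cry1 (adjusted p = 0.0352) and Cry2 (adjusted p = 0.0488), with a higher effect on the second day for Per3 and Cry2 and a lower one for Cry1.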

How the results depend on the processing

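The mean fasting effects and rhythms of the 5 genes kept direction and side of the threshold in 487 alternatives, lost the call in 16, gained one in 1 and turned in 1. The mean effect of Per3 was -0.12 in males alone and ranged from -0.50 to -0.25 with single replicates or times left out, and that of Cry1 was 0.0126 in males alone. The adjusted p of the control rhythm of Cry2 ranged from 0.000424 to 0.16 with single replicates or times left out. That of its rhythm difference ranged from 0.00301 to 0.24, was 0.377 in males, 0.176 in females and 0.0719 without the linear change over time, and at 0.0373 missed a threshold of 0.01. The rhythm difference of Per2 had an adjusted p of 2.43e-06 without a filter on low counts, where edgeR's prior degrees of freedom became infinite, in place of 4.59, so that all genes followed the shared trend. The cause of these changes, that of Per2 included, was not tested.

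A control rhythm was called for 5104 genes in males and 4692 in females, a fasted rhythm for 5893 and 4082, and a rhythm difference for 2354 and 1560, each from the livers of 1 sex. The rhythm difference was called for 2480 genes at a threshold of 0.01 and for 2461 to 4926 with single replicates or times left out. Exon use was called for 4558 genes by limma and for 1103 to 1479 without single replicates.

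Single differences that had not passed turned direction when 1 replicate of a sex was left out. Their ranges were -0.0559 to 0.0816 (Per1), -0.89 to 0.23 (Per2) and -0.32 to 0.34 (Per3) at CT8, -0.0655 to 0.0332 (Per3) at CT12, -0.22 to 0.00507 (Cry2) at CT20, -0.0856 to 0.208 (Per3) at CT24, -0.79 to 0.0262 (Per2) and -0.10 to 0.49 (Cry1) at CT28, -0.0934 to 0.119 (Cry2) at CT32, -0.615 to 0.0326 (Per3) at CT40 and -0.24 to 0.98 (Per3) at CT44. Between days in controls the range was -0.176 to 0.0385 (Cry1). The sex difference of the fasting effect ranged from -0.128 to 0.0215 (Per2) and -0.07 to 0.0136 (Cry2), and that in controls from -0.0973 to 0.0495 (Per1), -0.0468 to 0.171 (Per2) and -0.0153 to 0.0187 (Cry2).

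With sex and number as a replicate block the mean effects were 1.46 (Per1), -0.66 (Per2), -0.41 (Per3), -0.07 (Cry1) and 0.24 (Cry2), and the block changed no call of the 5 genes in the mean effect and the rhythms, the results for which it was run. Deviations of livers with the same sex and number had a median r of 0.598 over 760 pairs, against 0.595 for the same sex and the other number. They were taken from means of both sexes, so that the difference between the sexes stayed in them. The comparison therefore cannot tell whether the numbers pair mice. With 4 livers in a group, the SE at single times was 0.13 (Cry2) to 0.36 (Per1) on the log2 scale. It rests on a spread per gene from the fit of all 80 libraries, not on the livers of that time alone.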

Other observations

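The fasting effect changed over time for 12 of 14 activators and loop partners, 6 of 13 kinases, ligases and partners of PER and CRY proteins, and 10 of 14 targets of signals that reach Per1 and Per2, beside 33.7% of all genes by edgeR's quasi-likelihood test. Of the signal targets, 10 of 14 had a called rhythm in controls and 12 of 14 in fasted mice, and the rhythm difference was called for 3 of 14, beside 41.8%, 47.1% and 21.6% of all genes.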
